A study of Homo sapiens with 8 samples.

Results

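SLINKY is a long intergenic noncoding RNA (lincRNA) that the study examined in clear-cell renal cell carcinoma (ccRCC), and the RNA-seq libraries of its knockdown with siRNA #2 are described here. The members were chosen by their labels. They comprised 6 of the 8 libraries of the series, namely the 2 libraries of cells transfected with siRNA #2 (1 of A498 and 1 of 786-O cells) and the 4 libraries of cells transfected with a non-target control siRNA (NTC, 2 per cell line). The 2 libraries with siRNA #1 served only to show which genes that siRNA also moved. A498 and 786-O are established cell lines of human ccRCC. A498 cells were kept in DMEM and 786-O cells in RPMI-1640, both with fetal bovine serum, and no library came from untransfected cells. All siRNAs were delivered by lipofection at 50 nM for 16 hr. The labels call them ON-TARGETplus pools, whereas the study's methods describe independent siRNAs directed at the first exon of SLINKY. No source states that the NTC libraries came from separate cultures, so the spread between them may be technical. Most p-values below rest on that spread and on how far siRNA shifts differed between the lines. They may therefore not measure variation between cultures.

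An siRNA is a short RNA duplex. One of its strands, the guide, is loaded into an Argonaute protein and directs the cleavage of transcripts that it pairs with along its length. The bases near the 5′ end of the guide, its seed, can also pair with other transcripts, mostly in 3′ untranslated regions (UTRs), and lower them as a microRNA does. For this reason lincRNA knockdowns are commonly done with siRNAs of different sequence, and genes moved by only 1 of them are listed apart.

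Expression was given as FPKM, the fragments per kilobase of transcript scaled to a library's mapped reads. RefSeq transcripts were summed per current gene symbol, and 7256 genes that span at least 200 bp and reach an average of 5 FPKM across the 6 libraries entered the tests. Fold changes were taken on the scale of log2(FPKM + 0.1), relative to the average of both NTC libraries in that line. The estimated depth ranged from 25026761 mapped reads in A498 with siRNA #2, the lowest of the series, to 64416129 in 786-O NTC 2. Renal and ccRCC markers were present, with 9 of 10 at 1 FPKM or more in at least 1 library and CA9 at no more than 0.559 FPKM. Their summed level was 3159 to 3664 FPKM with NTC and 3137 to 3806 FPKM with siRNA #2. VIM, KRT8 and KRT18 made up most of that sum, so it says little about the other markers. PAX8 was at 39.2 to 48.1 FPKM and PAX2 at 1.08 to 1.84 FPKM in the 6 libraries. NDUFA4L2, also on the marker list, had no value. Of the leukocyte, endothelial and fibroblast markers CD68, which was at 139.3 FPKM or more in A498, and COL1A1 reached 1 FPKM, and PTPRC, PECAM1 and COL1A2 were at or near 0 in all 6 libraries.

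SLINKY itself was read from its own lncRNA gene entry at chr7:106415457-106436010. In A498 it was at 14.60 and 16.06 FPKM in the NTC libraries and at 3.01 FPKM with siRNA #2. In 786-O it was at 1.45 and 1.39 FPKM with NTC and at 0.594 FPKM with siRNA #2. The siRNA #2 library was thus below both NTC libraries in each cell line, by 80.3% of the NTC mean in A498 and by 58.2% in 786-O, and 786-O started from a far lower level than A498. The mean log2 fold change was -1.72, and an exact permutation test within the cell lines gave a two-sided p = 0.111, the smallest that the 9 arrangements allow. With siRNA #1 SLINKY was at 1.64 FPKM in A498 and 0.0569 FPKM in 786-O. The assembled lncRNA entry TCONS_00013055, which overlaps SLINKY, went from 3.54 and 5.27 to 2.20 FPKM in A498 and from 1.87 and 1.93 to 0.904 FPKM in 786-O. In these bulk libraries fewer cells that express a gene and less RNA per cell cannot be told apart.

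**Figure D1:**
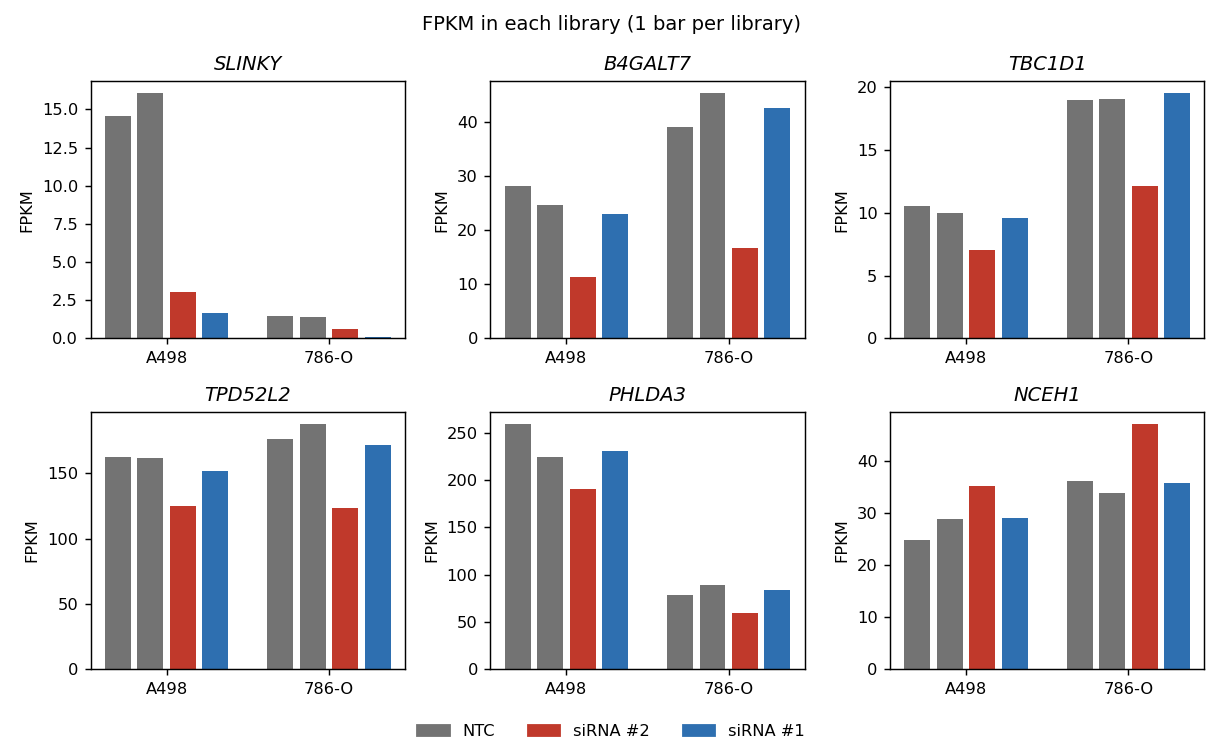
FPKM of SLINKY, of B4GALT7, TBC1D1, TPD52L2 and PHLDA3, which were lower with siRNA #2, and of NCEH1, which was higher, in each library of A498 and 786-O (y axis, linear and starting at 0, with 1 bar per library and no error bars). NTC bars are grey, siRNA #2 red and siRNA #1 blue, and for B4GALT7 the red bars stand at 11.4 and 16.6 FPKM while the blue ones stand at 22.95 and 42.44 FPKM.

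With cell line as covariate, limma called 4 genes at an adjusted p under 0.05, and all of them fell. These were B4GALT7, LINC01116, TBC1D1 and TPD52L2. They made up 0.0551% of the genes tested, and no gene was called higher (0%). Without adjustment 911 genes had p under 0.05, 305 of them higher and 606 lower. B4GALT7 passed with each of the 6 libraries left out in turn.

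B4GALT7 (chr5:177027119-177037346 in hg19, 1 RefSeq transcript, no overlapping entry) encodes galactosyltransferase I, which adds the first galactose to the linker on which proteoglycans carry their glycosaminoglycan chains. In A498 it was at 28.07 and 24.67 FPKM with NTC and at 11.4 FPKM with siRNA #2. In 786-O it was at 39.04 and 45.24 FPKM with NTC and at 16.6 FPKM with siRNA #2. The gene was left at 43.5% of its NTC level in A498 and 39.6% in 786-O, well below either NTC library, and the 95% intervals that Cufflinks gives, 10.3 to 12.5 FPKM against a lowest NTC bound of 23.3 FPKM in A498, did not overlap. The log2 fold change was -1.27 (SE 0.079, limma adjusted p = 0.000359). With siRNA #1 it was at 22.95 FPKM in A498 and 42.44 FPKM in 786-O, near the NTC libraries of both lines. The difference between siRNA #2 and siRNA #1 was -1.18 on the log2 scale (SE 0.098, limma adjusted p = 0.00216).

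TBC1D1 (chr4:37892705-38140796) encodes a Rab GTPase-activating protein that acts in the traffic of glucose transporters. Its summed transcripts were at 10.55 and 10.02 FPKM with NTC and 7.03 FPKM with siRNA #2 in A498, and at 18.97 and 19.06 FPKM against 12.14 FPKM in 786-O. The NTC libraries lay close together and siRNA #2 lay below them in both lines, at 68.7% and 64.0% of the NTC level. TBC1D1 fell by 0.59 on the log2 scale (SE 0.059, limma adjusted p = 0.00728), and the adjusted p was 0.0535 without the 786-O siRNA #2 library. With siRNA #1 it was at 9.61 and 19.52 FPKM, and siRNA #2 differed from siRNA #1 by -0.56 (SE 0.070, limma adjusted p = 0.00554). PTTG2, an intronless gene nested in TBC1D1, has an entry of its own. It was at 35.87 and 41.76 FPKM with NTC and 39.61 FPKM with siRNA #2 in A498, and at 55.69 and 53.52 FPKM against 47.44 FPKM in 786-O. With PTTG2 added, the log2 fold changes of the locus were -0.07 in A498 and -0.30 in 786-O. With the highest entry per symbol the limma adjusted p of TBC1D1 against NTC was 0.461.

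TPD52L2 (chr20:62496581-62522898), a member of the tumor protein D52 family, was among the most abundant of the shifted genes. It was at 162.8 and 162.1 FPKM with NTC and 124.7 FPKM with siRNA #2 in A498, and at 176.6 and 187.8 FPKM against 123.3 FPKM in 786-O. The siRNA #2 libraries were below all NTC libraries, at 76.8% and 67.7% of the NTC level. With siRNA #1 it was at 152.1 and 171.7 FPKM, also below both NTC libraries of each line. The transcript with the largest fall under siRNA #2 differed between the lines. With the highest entry per symbol the limma adjusted p against NTC was 0.505. TPD52L2 fell by 0.47 on the log2 scale (SE 0.057, limma adjusted p = 0.0276) and differed between the siRNAs by -0.38 (SE 0.060, limma adjusted p = 0.0192). Its change against NTC did not pass without A498 NTC 1 (limma adjusted p = 0.106), without A498 NTC 2 (0.119) or without the 786-O siRNA #2 library (0.149).

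LINC01116 is a lincRNA (chr2:177494309-177502302) with the largest fitted change, a log2 fold change of -5.47 (SE 0.49, limma adjusted p = 0.00456). Its RefSeq entry was at 7.15 and 16.27 FPKM with NTC and 0.224 FPKM with siRNA #2 in A498. In 786-O it was at 11.58 and 2.85 FPKM with NTC and 0.000496 FPKM with siRNA #2. The NTC libraries themselves differed by over 2-fold in each cell line. Assembled lncRNA entries cover the same locus, and Cufflinks divides reads between overlapping entries. Summed over the 5 entries, the locus was at 74.54 and 84.92 FPKM with NTC and 81.44 FPKM with siRNA #2 in A498, and at 67.13 and 67.58 FPKM against 67.20 FPKM in 786-O. The locus as a whole was thus within the NTC range in both lines while the RefSeq entry was near 0. With siRNA #2 that close to 0 the size of the fold change is set by the pseudocount. It was -3.04 with a pseudocount of 1 and -7.31 with 0.01. The call was lost with a pseudocount of 1 (limma adjusted p = 0.0514), with limma's robust option (0.282), without a filter on low values (0.487), with loci under 200 bp kept (0.228), with the highest entry per symbol (0.252) and without A498 NTC 2 (0.0712).

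**Figure D2:**
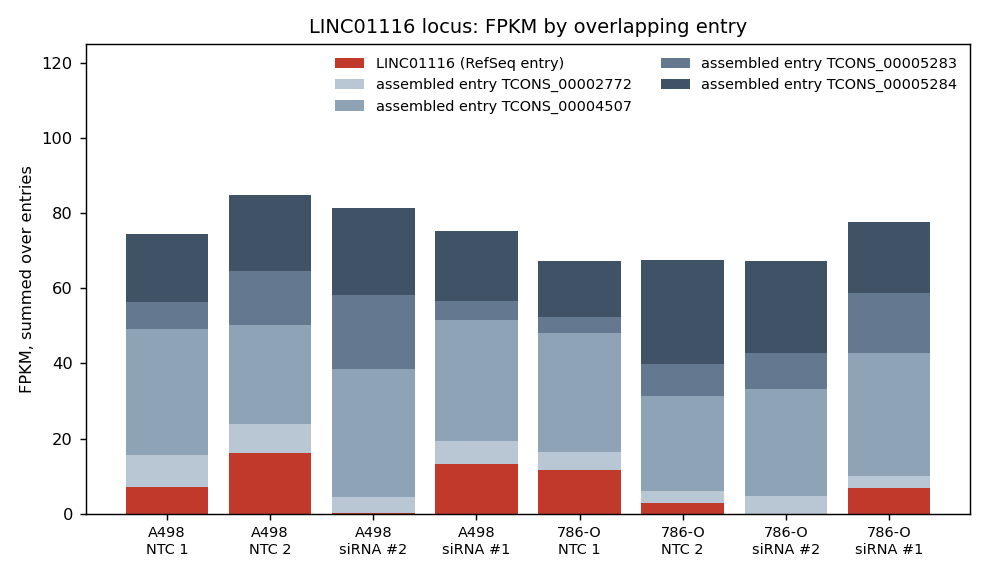
FPKM of the LINC01116 locus in each library, stacked by the 5 overlapping entries of the deposited tables (y axis, linear from 0, 1 bar per library). The red RefSeq entry is at 0.224 FPKM in A498 and 0.000496 FPKM in 786-O with siRNA #2, while the whole bars stand at 81.44 and 67.20 FPKM, near those of NTC.

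Genes shifted the same way in both cell lines were then listed by size. A gene counted when siRNA #2 lay beyond both NTC libraries and was at least 25% above or 20% below their mean, in A498 and in 786-O. The same bounds say below whether siRNA #1 moved a gene. Its shifts used the same NTC libraries, so agreement between the siRNAs is not independent. For siRNA #2 the rule held for 8 genes in the upward direction (0.11% of the genes tested) and 9 in the downward direction (0.124%). Higher in both lines were BCYRN1, TDG, AMMECR1, WEE1, SCML1, NCEH1, CXCL10 and SAMD9. Among those lower in both lines were LINC01116, B4GALT7, TBC1D1, TM4SF19-DYNLT2B, TPD52L2, LUC7L2, INO80B and PHLDA3. The rule rests on 1 siRNA #2 library per cell line. At 1.5-fold BCYRN1, whose entry is uncertain as given below, remained above and LINC01116 and B4GALT7 below. MANCR and INO80B-WBP1 passed the bounds in both lines but overlapped an NTC library in at least 1 of them. The genes nearest to the threshold on the inside were SAMD9, at 0.38 in A498 and 0.34 in 786-O on the log2 scale, and on the outside SLC25A10 (-0.32 and -0.33) and GET4 (-0.32 and -0.32). Of a single line, siRNA #2 took 51 genes past these bounds upward and 131 downward in A498, and 67 upward and 48 downward in 786-O.

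**Figure D3:**
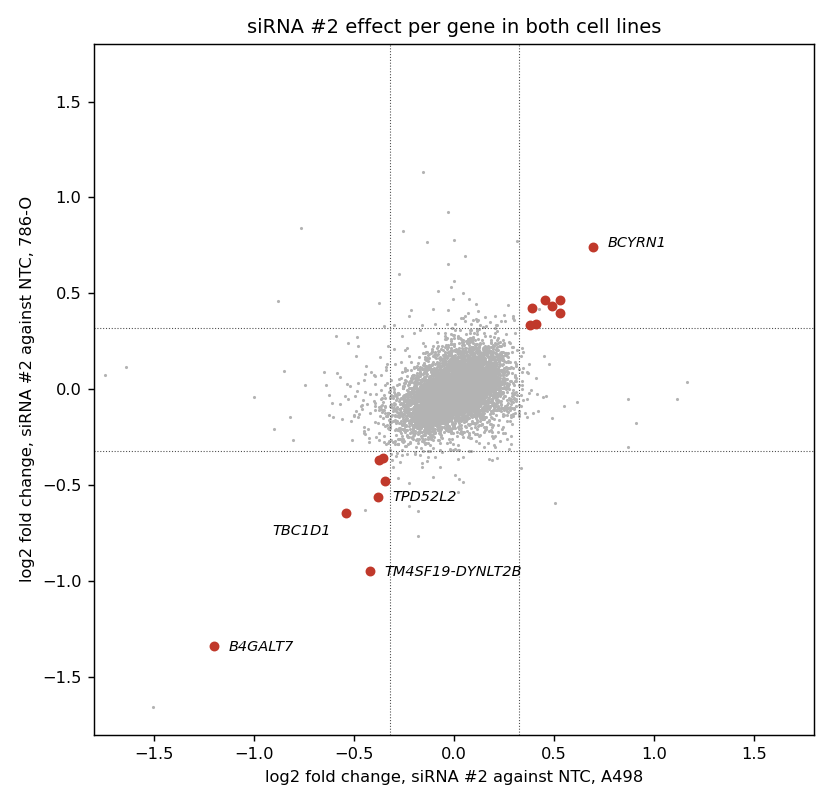
Log2 fold change with siRNA #2 against NTC in A498 (x axis) and 786-O (y axis) for the genes tested (grey, 1 point per gene, 9 genes outside the axes, LINC01116 among them). Red points are 15 of the genes shifted the same way in both lines, dotted lines mark 25% above and 20% below NTC, and B4GALT7 stands alone at -1.20 and -1.33 among the red points shown.

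In limma's interaction of siRNA #2 and cell line 6 genes (0.0827%) differed between A498 and 786-O. The cell lines share no library, so their shifts can be set side by side. Across the 7256 genes the log2 fold changes with siRNA #2 in A498 and 786-O had a Pearson correlation of 0.278 and a Spearman correlation of 0.402, and 65.5% of genes had the same sign. Genes are not independent replicates, and the points share the library of each line. Most shifts were small. The median absolute log2 fold change was 0.0864 in A498 and 0.0713 in 786-O, whereas the NTC libraries differed from each other by a median of 0.102 and 0.0778.

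Among the lower genes, 7 of 9 were moved by siRNA #1 in neither line, among them LINC01116, B4GALT7, TBC1D1, TPD52L2, LUC7L2 and PHLDA3. Most genes tested were likewise not moved by siRNA #1. Of 7256 genes, siRNA #1 took 31 upward and 80 downward past the bounds and beyond both NTC libraries in A498. In 786-O siRNA #1 took 114 upward and 115 downward. The count of 7 of 9 therefore does not by itself mark these genes as particular to siRNA #2. PHLDA3, a p53 target that restrains AKT, was at 259.0 and 224.3 FPKM with NTC and 189.9 FPKM with siRNA #2 in A498, and at 77.99 and 88.95 FPKM against 59.79 FPKM in 786-O. Its values with siRNA #1, 230.9 and 83.71 FPKM, lay between the NTC libraries. The log2 fold change of PHLDA3 was -0.41 (SE 0.076, limma adjusted p = 0.156).

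Like LINC01116 and TBC1D1, the lower genes LUC7L2, INO80B and TM4SF19-DYNLT2B shared their locus with other entries. LUC7L2, a splicing factor of the U1 snRNP, was at 6.01 FPKM with siRNA #2 in A498 against 8.60 and 7.14 FPKM with NTC, and at 7.66 FPKM against 9.76 and 10.11 FPKM in 786-O. With the overlapping entries FMC1 and FMC1-LUC7L2 added, the locus was at 39.26 FPKM against 39.49 and 40.02 FPKM in A498 and at 48.79 FPKM against 49.03 and 46.89 FPKM in 786-O, so the whole locus lay near the NTC libraries. INO80B, a subunit of the INO80 chromatin remodeler, was below both NTC libraries with siRNA #2 (12.93 against 19.73 and 13.87 FPKM in A498, 5.34 against 6.30 and 7.48 FPKM in 786-O). With a pseudocount of 1 INO80B did not reach the bound in 786-O (-0.31). With its read-through entry INO80B-WBP1 its log2 fold changes were -0.14 and -0.03. The read-through transcript TM4SF19-DYNLT2B had log2 fold changes of -0.42 and -0.95 on its own, and 0.12 and 0.16 with the entries it overlaps. siRNA #1 moved INO80B in 786-O and TM4SF19-DYNLT2B in both lines. The part of this division of reads in the listed shifts was not tested beyond these sums.

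Among the 8 higher genes, NCEH1 was the one that siRNA #1 moved in neither line. NCEH1 encodes a neutral cholesterol ester hydrolase. It was at 24.82 and 28.83 FPKM with NTC, 35.10 FPKM with siRNA #2 and 29.05 FPKM with siRNA #1 in A498. In 786-O it was at 36.07 and 33.87 FPKM with NTC, 47.00 FPKM with siRNA #2 and 35.62 FPKM with siRNA #1. The siRNA #2 libraries were the highest of each line, with a log2 fold change of 0.41 (SE 0.069, limma adjusted p = 0.125) and a difference from siRNA #1 of 0.34 (SE 0.075, limma adjusted p = 0.0909).

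siRNA #1, set against the same NTC libraries, moved TDG and SCML1 in both lines as well. TDG, a DNA glycosylase that excises mismatched thymine and oxidised 5-methylcytosine, was at 3.17 and 3.62 FPKM with NTC, 4.94 FPKM with siRNA #2 and 4.46 FPKM with siRNA #1 in A498. In 786-O it was at 6.24 and 6.07 FPKM with NTC, 8.55 FPKM with siRNA #2 and 7.99 FPKM with siRNA #1. SCML1, a relative of the Polycomb protein Scm, was at 2.76 and 2.58 FPKM with NTC against 3.89 FPKM with siRNA #2 in A498 and at 9.33 and 8.28 FPKM against 11.60 FPKM in 786-O. Both genes were above the NTC libraries with either siRNA, and siRNA #2 differed from siRNA #1 by 0.12 for TDG (SE 0.085, limma adjusted p = 0.680) and by -0.12 for SCML1 (SE 0.090, limma adjusted p = 0.691).

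WEE1, AMMECR1, CXCL10 and SAMD9 were moved by siRNA #1 in 786-O alone and BCYRN1 in A498 alone. BCYRN1 lay close to the bound with siRNA #1, at 127.9% of NTC in A498 and 124.4% in 786-O. WEE1 was at 124.2% in A498. WEE1, the kinase that holds CDK1 inactive before mitosis, was at 11.34 and 11.51 FPKM with NTC, 16.10 FPKM with siRNA #2 and 14.21 FPKM with siRNA #1 in A498. In 786-O it was at 8.37 and 7.39 FPKM with NTC, 10.66 FPKM with siRNA #2 and 11.93 FPKM with siRNA #1. Its log2 fold change with siRNA #2 was 0.46 (SE 0.068, limma adjusted p = 0.0818), the lowest p of a higher gene. WEE1 passed under 1 of 19 alternatives, the one without 786-O NTC 1. With single libraries left out its log2 fold change ranged from 0.43 to 0.50. Between the siRNAs WEE1 differed by 0.01 (SE 0.092, limma adjusted p = 0.983). CXCL10, an interferon-induced chemokine, and SAMD9, an interferon-induced antiviral factor, were expressed mainly in A498, at 13.96 and 13.83 FPKM and at 14.23 and 15.26 FPKM with NTC. With siRNA #2 they stood at 18.49 and 19.16 FPKM in A498. In 786-O CXCL10 was at 0.190 and 0.198 FPKM with NTC and 0.273 FPKM with siRNA #2, where the Cufflinks intervals overlapped. SAMD9 was at 0.811 and 0.833 FPKM with NTC and 1.06 FPKM with siRNA #2 in 786-O. With siRNA #1 CXCL10 and SAMD9 were at 0.324 and 1.13 FPKM in 786-O and at 15.77 and 15.72 FPKM in A498. Both genes entered the tests through A498. With a pseudocount of 1 their log2 fold changes in 786-O were 0.09 and 0.18, and neither reached the bound. AMMECR1 was at 5.21 and 5.99 FPKM with NTC against 7.69 FPKM in A498, and at 4.22 and 4.06 FPKM against 5.77 FPKM in 786-O. BCYRN1, a noncoding RNA with an Alu-derived part, was at 14.27 and 21.76 FPKM with NTC against 28.57 FPKM in A498 and at 80.15 and 109.7 FPKM against 156.8 FPKM in 786-O. The entry of BCYRN1 extends over chrX:70430035-70948962 and overlaps NONO, and its sequence occurs in several copies. Its level is therefore uncertain and may not be that of the BCYRN1 gene. With the overlapping entries added, the log2 fold change was 0.17 in A498, short of the bound, and 0.39 in 786-O.

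**Figure D4:**
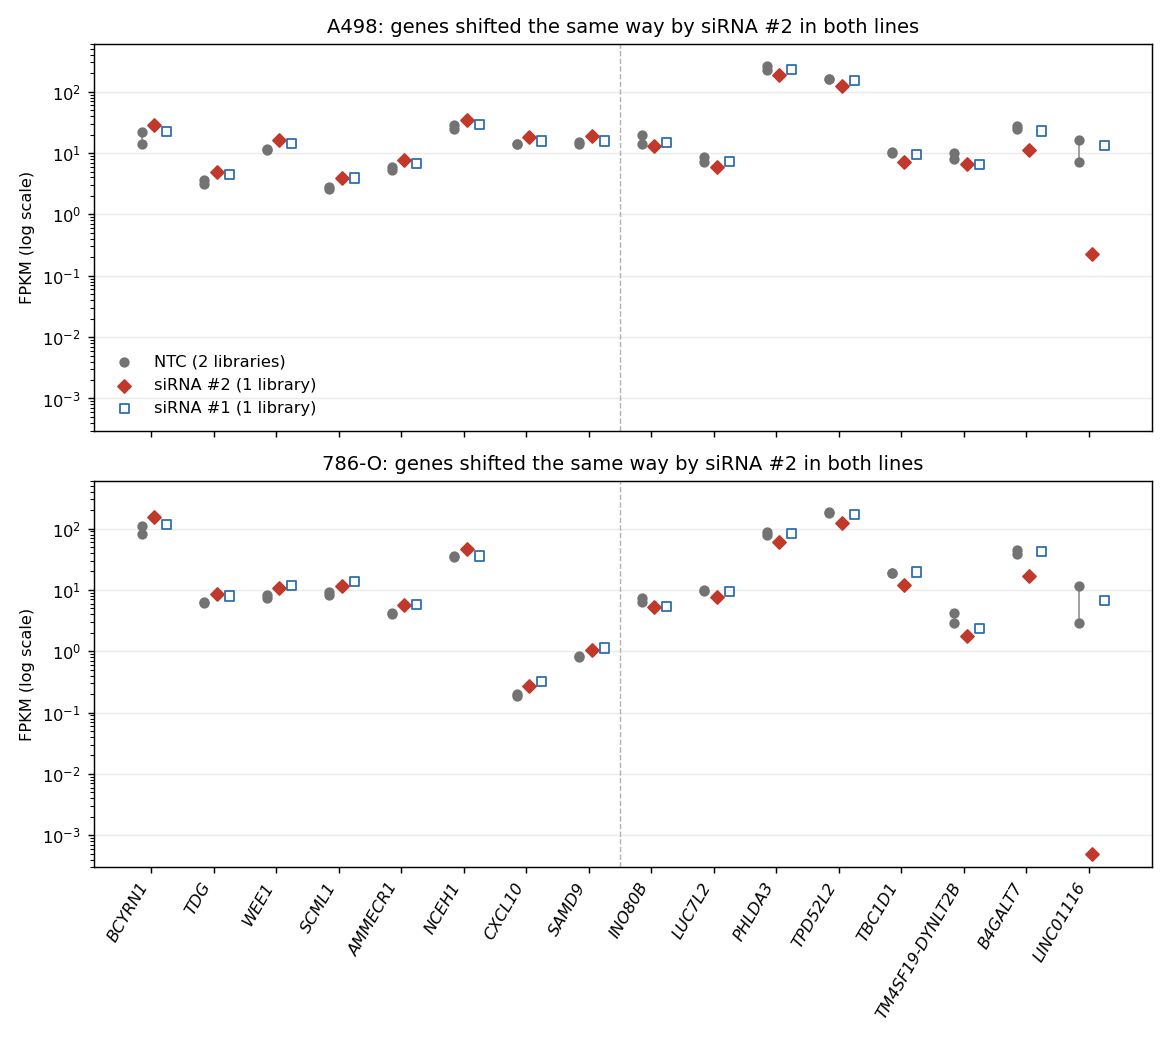
FPKM (y axis, log scale) of 16 of the 17 genes shifted the same way by siRNA #2 in both lines, with A498 above and 786-O below, 2 NTC libraries (grey, joined by a line), 1 siRNA #2 library (red) and 1 siRNA #1 library (blue squares) per gene. Higher genes are left of the dashed line and lower genes right of it, and for B4GALT7, TBC1D1 and TPD52L2 the blue square stays near the grey points.

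The difference between the siRNAs was also fitted across all genes, which uses no NTC library for its direction. limma called 55 genes (0.758%), of which 44 were higher and 11 lower with siRNA #2 than with siRNA #1. Of the 17 genes shifted the same way by siRNA #2, LINC01116, B4GALT7, TBC1D1 and TPD52L2 were among the 55, all lower with siRNA #2. Of the rest, 27 were genes that siRNA #1 shifted the same way in both lines, and 24 were in neither list. siRNA #1 itself shifted 9 genes up and 40 down by the rule used for siRNA #2. CCND1, the cyclin D1 gene, was among the 55. It was at 35.64 FPKM with siRNA #2 against 35.7 and 37.2 FPKM with NTC in A498, and at 70.54 FPKM against 74.76 and 70.22 FPKM in 786-O, within or next to the NTC range. With siRNA #1 it was at 28.50 and 50.45 FPKM.

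Gene lists gave no further limma call for siRNA #2, and PHLDA3 was the only listed gene among those shifted the same way. The lists are described by their medians beside all genes tested, whose median was 0.000231 in A498 and -0.00847 in 786-O. Medians with siRNA #1 rest on the same NTC libraries as those with siRNA #2. By the median of the fold changes over both lines the highest were the NF-kB targets, cytokines and chemokines (0.125) and the interferon-stimulated genes (0.119), which cells switch on in response to interferon. In A498 alone the mitosis genes and the YAP and TEAD targets stood above the NF-kB targets. Of 33 interferon-stimulated genes tested, 21 were higher in both lines (63.6%, against 31.2% of all genes) and 5 lower in both, with medians of 0.129 and 0.0896. With siRNA #1 the medians of this list were 0.0232 in A498 and 0.145 in 786-O, the latter above that of siRNA #2. Without adjustment 13 were higher (39.4%) and 0 lower, against 4.20% and 8.35% of all genes, and 0 passed after it. IFIT2, for example, was at 45.83 and 48.49 FPKM with NTC and 55.39 FPKM with siRNA #2 in A498 and at 2.63 and 2.60 FPKM against 3.38 FPKM in 786-O (log2 fold change 0.29, SE 0.061, limma adjusted p = 0.234). With siRNA #1 IFIT2 was at 52.04 and 3.98 FPKM. Of 19 NF-kB targets, cytokines and chemokines, 14 were higher in both lines (73.7%) and 3 lower, with medians of 0.0912 and 0.138. With siRNA #1 they were 0.0451 and 0.155. CCL2, a monocyte-attracting chemokine, was at 194.4 and 198.0 FPKM with NTC and 236.2 FPKM with siRNA #2 in A498 and at 19.05 and 18.70 FPKM against 25.60 FPKM in 786-O (log2 fold change 0.35, SE 0.056, limma adjusted p = 0.117). With siRNA #1 CCL2 was at 217.6 and 32.8 FPKM, also above NTC.

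**Figure D5:**
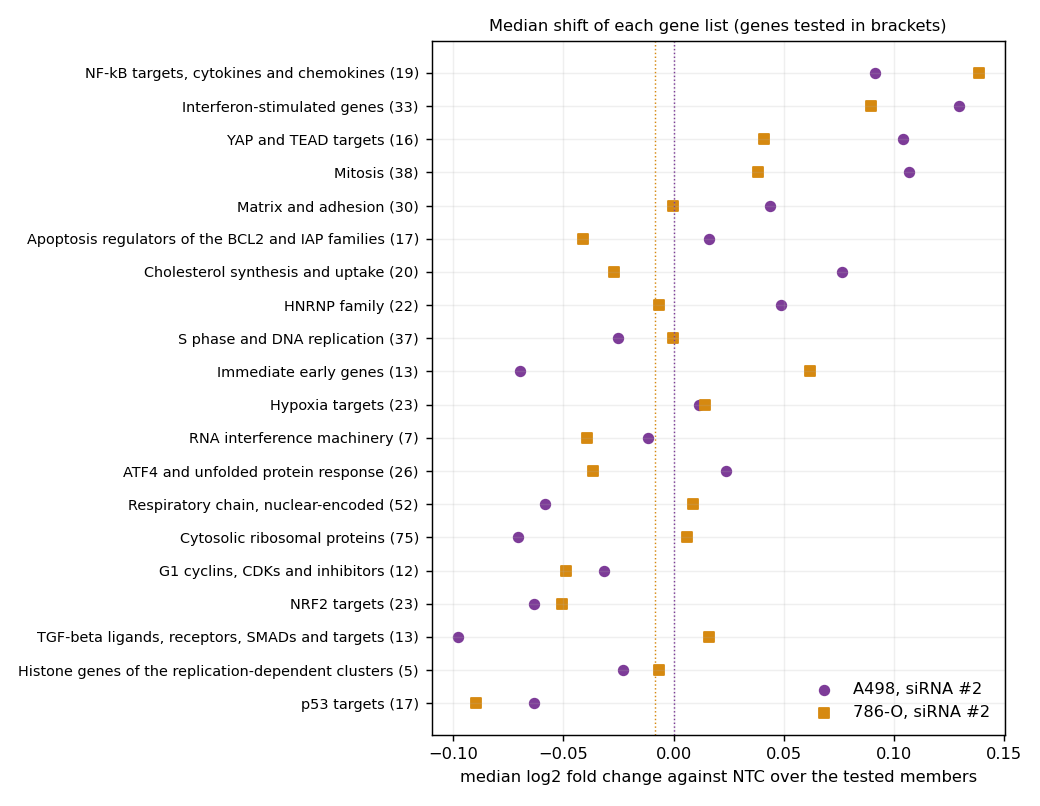
Median log2 fold change with siRNA #2 against NTC over the tested genes of each of 20 gene lists (x axis), in A498 (circles) and 786-O (squares), with the median of all genes tested as a dotted line per cell line. Interferon-stimulated genes (0.129 and 0.0896) and NF-kB targets (0.0912 and 0.138) are the highest over both lines and p53 targets (-0.0633 and -0.0894) the lowest, while in A498 alone 2 lists lie between these high lists and 4 lie below p53 targets.

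Mitosis genes had medians of 0.107 and 0.0383. In both lines 23 of 38 were higher (60.5%, against 31.2% of all genes) and 3 lower (7.89%, against 34.3%). With siRNA #1 the medians of this list were 0.00670 in A498 and -0.0286 in 786-O. TOP2A, the topoisomerase that separates chromosomes, was at 24.19 and 28.49 FPKM with NTC and 30.67 FPKM with siRNA #2 in A498 and at 25.53 and 24.26 FPKM against 28.16 FPKM in 786-O (limma adjusted p = 0.348). S phase genes had medians of -0.0250 and -0.000337 over 37 genes. p53 targets had the lowest median over both lines (-0.0669) and in 786-O, whereas in A498 the TGF-beta, ribosomal protein, immediate early and NRF2 lists were lower. The medians of the p53 targets were -0.0633 and -0.0894, with 9 of 17 lower in both lines (52.9%, against 34.3% of all genes) and 3 higher. With siRNA #1 the medians of this list were -0.0514 and 0.0706. Beside PHLDA3, the ferredoxin reductase gene FDXR was at 61.92 FPKM with siRNA #2 against 81.60 and 73.71 FPKM with NTC in A498 and at 11.52 FPKM against 13.10 and 14.72 FPKM in 786-O (limma adjusted p = 0.254). CDKN1A, the p53-induced inhibitor of cyclin-dependent kinases, was at 286.6 FPKM against 313.5 and 285.9 FPKM in A498, within the NTC range, and at 46.76 FPKM against 48.26 and 49.97 FPKM in 786-O. NRF2 targets had medians of -0.0634 and -0.0504. In both lines 12 of 23 were lower (52.2%, against 34.3% of all genes) and 4 higher (17.4%, against 31.2%). With siRNA #1 the medians of this list were 0.0380 and 0.0855. The 75 cytosolic ribosomal protein genes had medians of -0.0706 in A498 and 0.00595 in 786-O. The other lists had medians from -0.0979 (TGF-beta genes in A498) to 0.104 (YAP and TEAD targets in A498), and none held a limma call.

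HNRNPK, the RNA-binding protein that the study examined beside SLINKY, was at 107.0 and 119.0 FPKM with NTC and 124.6 FPKM with siRNA #2 in A498 and at 130.9 and 125.9 FPKM against 128.2 FPKM in 786-O. Its log2 fold change was 0.07 (SE 0.061, limma adjusted p = 0.624). PIK3CG, the neighbouring gene of SLINKY, was at most 0.0231 FPKM in any of the 6 libraries and too low to compare.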

How the data were processed

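RNA of A498 and 786-O cells was sequenced as single 36 bp reads. The submitters' processing notes name TopHat2 2.0.0 and Cufflinks 2.0.2, and the authors deposited an FPKM value, with its 95% interval, for each of 75378 entries per library on hg19. Of 43150 RefSeq entries, 96.6% were matched to current symbols (names only, from a table of another assembly) and summed to 22674 genes. Depth was estimated from entries with a single read, assuming fragments of 200 bp. Without counts, count models were not fitted.

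Effects were fitted with limma 3.58.1 in R 4.3.3 on log2(FPKM + 0.1), letting the variance follow expression, and p-values were adjusted by Benjamini-Hochberg (threshold 0.05). The siRNA #2 effect used 6 libraries and the cell line as covariate, and the difference between the siRNAs used 8 libraries. There was 1 siRNA #2 library per line. The spread in the siRNA #2 fit came from the NTC libraries and from the difference of the siRNA #2 shift between the lines. This left 3 residual degrees of freedom, and limma also drew on the spread of other genes. In the interaction fit the residual spread came from the NTC libraries alone. The fits were tested on simulated data.

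The rule for named genes covered SLINKY, HNRNPK, PIK3CG, the genes limma called, the genes shifted the same way and the list members among them. IFIT2, CCL2, TOP2A, FDXR, CDKN1A, CCND1 and the genes nearest to the threshold were chosen after their values were seen. 1 of the genes shifted the same way is not reported here. Members and lists were chosen with earlier results of these data known. Alternatives covered the pseudocount, the filters, scaling, left-out libraries, a replicate block, the fold threshold and options of limma. Each NTC library was left out in turn. The siRNA #2 libraries were left out only for SLINKY and for the fit over both lines, and no siRNA #1 library was.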

Additional observations from a re-analysis of the deposited data

Results flagged for a closer look

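For 6 genes the effect of siRNA #2 differed between the cell lines in limma's interaction of siRNA #2 and cell line (0.0827% of the genes tested, 200 with an unadjusted p under 0.05). The values are the log2 fold change in 786-O minus that in A498. RPL21, a ribosomal protein gene, had 8.90 (limma adjusted p = 1.15e-06), a size set by the pseudocount (5.64 with 1 and 12.07 with 0.01). Its RefSeq entry was at 21.50 and 7.79 FPKM with NTC and 0.00120 FPKM with siRNA #2 in A498, and at 15.42 and 13.07 FPKM against 52.96 FPKM in 786-O. EMG1, a ribosome biogenesis factor, had 2.44 (limma adjusted p = 4.03e-06), at 5.43 and 4.96 FPKM against 1.06 FPKM in A498 and 15.50 and 16.91 FPKM against 19.25 FPKM in 786-O. The read-through transcript PMF1-BGLAP had 1.82 (0.000663), the pseudogene LSP1P5 1.60 (0.00114), GGPS1 -1.10 (0.0173) and the pseudogene PPIAP46 0.82 (0.0407). RPL21, EMG1, PMF1-BGLAP, LSP1P5 and GGPS1 overlap other entries. With those added, the log2 fold changes in A498 and 786-O were 0.01 and 0.05 for RPL21 (without snoRNA entries under 200 bp, and 0.59 and 0.56 with them, mostly from SNORD102), 0.03 and -0.14 for EMG1, -0.01 and -0.09 for PMF1-BGLAP, -0.14 and -0.10 for LSP1P5, and 0.27 and -0.02 for GGPS1. Among the 6002 genes with no overlapping entry limma called 0, with 161 at an unadjusted p under 0.05. Each effect rests on 1 siRNA #2 library per cell line. Its p-value rests on the spread between NTC libraries, which may be technical, and holds no variation between siRNA #2 libraries.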

How the results depend on the processing

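Against NTC B4GALT7 passed in limma under each alternative except the one without a filter on low values (adjusted p = 0.487). Against siRNA #1 it also missed with the highest entry per symbol (0.0851) and passed under 10 of 12 alternatives. Against NTC TBC1D1 passed under 13 of 18 alternatives, LINC01116 under 12 of 18 and TPD52L2 under 9 of 19. The number of genes called over both lines was 4 in the main analysis. It was 0 without a filter (18767 genes tested, 1654 with an unadjusted p under 0.05), 7 with loci under 200 bp kept, 1 with the highest entry per symbol, 2 with genes that have no overlapping entry, and 2 to 13 when single libraries were left out. The genes shifted the same way, 8 up and 9 down, became 21 and 22 at a mean of at least 1 FPKM, 108 and 106 without a filter, 45 and 21 with short loci, 26 and 20 with the highest entry, 7 and 4 without overlapping entries, and 1 and 2 at 1.5-fold. Leaving out single NTC libraries gave 6 to 13 up and 7 to 22 down. The 55 genes that differed between the siRNAs became 0 without a filter (1578 unadjusted), 5 with short loci, 0 with the highest entry (632 unadjusted), and 49 to 73 with single NTC libraries left out. No siRNA library was left out for this difference, whose size does not depend on the NTC libraries. For CXCL10 the difference between the siRNAs changed sign to -0.00494 with a pseudocount of 0.01, and for SAMD9 to -0.0586 with the highest entry (neither passed). The 6 interaction genes became 13, 37, 18 and 0 under at least 1 FPKM, no filter, short loci and no overlapping entry, and 14 to 31 with libraries left out. SLINKY's log2 fold change was -1.31 and -1.79 with pseudocounts of 1 and 0.01, and -2.31 to -1.13 with libraries left out. Where libraries or filters moved a count, the cause was not tested.

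The labels number the NTC libraries and the siRNAs, but no source says that a number marks a shared culture. With the number as a replicate block limma called 3 genes, and TBC1D1 (adjusted p = 0.0965) and TPD52L2 (0.128) were not among them. The difference NTC 1 minus NTC 2 correlated at -0.255 across genes between the lines, and with the numbers of 786-O crossed (an alternative added after seeing the data, as was the one on overlapping entries) limma called 2 genes.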

Other observations

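The deposited tables also hold GENCODE lncRNA genes and assembled lncRNAs, which the comparison of genes left out. Of 943 such entries that span at least 200 bp and average at least 5 FPKM, siRNA #2 shifted 20 higher (2.12%) and 16 lower (1.70%) in both lines by the rule used for genes, SLINKY among the latter. Many of these entries overlap each other, so single values are uncertain.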
